A study of Mus musculus with 2 samples.

Results

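ATP-binding cassette (ABC) pumps and the solute carriers of bile salts, small peptides and organic ions were compared between normal mouse colon and colon adenomas. The group was chosen by name: of the 22388 mRNA genes in the deposited table, those with an ABC subfamily symbol from Abca to Abcg, a carrier symbol of the Slc10, Slc15, Slc22, Slc47 or Slc51 families, an Slco symbol, or the older symbols Osta and Ostb. These were 105 genes of 35529 in all, and 47 of them had at least 1 RPKM, a read count scaled to gene length and library size, in either library. Normal colon came from untreated wild-type C57BL/6 mice. The adenomas came from C57BL/6 wild-type mice treated with the carcinogen azoxymethane (AOM) together with dextran sodium sulfate (DSS), a polymer that damages colonic epithelium. RNA of 6 individuals was pooled for each group and each pool was sequenced once, so no difference below has a replicate check. In whole-tissue RNA, fewer cells of a type cannot be told apart from less RNA per cell, and the adenoma was set against whole normal colon and not against its own cell of origin.

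ABC proteins couple ATP hydrolysis to the movement of lipids, bile salts, drugs or conjugates across membranes, and in the gut several of them sit on the apical side of absorptive cells and return foreign compounds to the lumen. The solute carriers use ion gradients or exchange instead: Slc10 members take up bile salts with sodium, Slc15 members take up di- and tripeptides with protons, and Slc22 and Slco members carry organic cations, carnitine and organic anions. ABCE and ABCF proteins have the ATPase domains but no membrane domain and act in translation and ribosome recycling.

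The promoter sequences of 4 genes are shown because these genes carry the main differences: the drug pump pair Abcb1a and Abcb1b, the intestinal peptide carrier Slc15a1, and Abcc2, the 1 gene of those past 1 RPKM that was at least 2-fold higher in the adenoma pool. Each is the 250 bases before the transcription start that RefSeq gives on GRCm38.p6, written 5′ to 3′ on the gene's strand, and capitals mark the letter motifs described after them.
Abcb1a (chr5:8566841-8567090, plus strand): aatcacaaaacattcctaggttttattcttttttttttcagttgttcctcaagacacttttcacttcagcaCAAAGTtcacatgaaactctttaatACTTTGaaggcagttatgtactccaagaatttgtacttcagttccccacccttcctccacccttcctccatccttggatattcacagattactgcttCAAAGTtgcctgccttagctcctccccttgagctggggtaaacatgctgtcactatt
Abcb1b (chr5:8797897-8798146, plus strand): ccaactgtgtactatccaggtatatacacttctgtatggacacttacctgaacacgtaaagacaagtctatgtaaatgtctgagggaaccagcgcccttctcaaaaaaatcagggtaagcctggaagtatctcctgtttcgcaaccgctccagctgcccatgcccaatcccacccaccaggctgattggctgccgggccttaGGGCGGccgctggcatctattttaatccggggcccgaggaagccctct
Slc15a1 (chr14:121505255-121505504, minus strand): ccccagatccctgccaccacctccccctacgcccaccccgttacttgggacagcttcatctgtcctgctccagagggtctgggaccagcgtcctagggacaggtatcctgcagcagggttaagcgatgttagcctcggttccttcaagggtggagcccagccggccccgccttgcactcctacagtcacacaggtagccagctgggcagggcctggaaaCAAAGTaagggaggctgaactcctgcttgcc
Abcc2 (chr19:43782058-43782307, plus strand): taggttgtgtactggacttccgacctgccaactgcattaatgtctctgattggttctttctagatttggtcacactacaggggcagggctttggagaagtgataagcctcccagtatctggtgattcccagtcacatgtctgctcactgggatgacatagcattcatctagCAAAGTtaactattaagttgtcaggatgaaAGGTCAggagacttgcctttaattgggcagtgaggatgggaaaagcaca

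The capitals in the Abcb1a window are 3 copies of CAAAGT or its reverse ACTTTG, the core of sites for the nuclear receptors of the Hnf4 family. The Slc15a1 and Abcc2 windows hold 1 copy each, and Abcc2 also holds 1 AGGTCA, the core letters of a nuclear receptor site. The Abcb1b window holds 1 GC box, GGGCGG, and neither of those motifs. The Abcb1a start in RefSeq lies far upstream of the gene as GENCODE M21 places it (chromosome 5, 8660077 to 8748575). The window shown is that of this distal start, and whether colon uses it was not tested. Of the 105 genes, 84 had a promoter entry, 34 of them with at least 1 RPKM. On either strand, CAAAGT occurred in 7 of these 34 windows, against 10.8% of 9721 mRNA genes past the same level and 12.5% of 27025 promoters in all. AGGTCA occurred in 6 of 34, against 10.9% and 13.8%, and GGGCGG in 17 of 34, against 58.7% and 32.9%. The motif GTTAAT of Hnf1 factors and the TCF/LEF site CTTTGAT were in 0 of 34 windows, against 3.83% and 2.36% of the mRNA genes, TTTATG of Cdx factors was in 1, against 6.04%, and the TATA box letters TATAAA were in 5, against 6.98%. ACTTTG and CTTTGAT overlap in the letters CTTTG. These are matches of letters and do not show binding.

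More of the transporter genes were lower than higher in the adenomas. Abcb1a, the P-glycoprotein pump of the apical membrane, Slc15a1, the main intestinal di- and tripeptide carrier, Slc10a5, an orphan relative of the bile salt carriers, and Slco2a1, the prostaglandin uptake carrier, were 5.64-fold to 10.5-fold lower. The apical conjugate pump Abcc2 went the other way and was 11.2-fold higher. Of the 47 genes past 1 RPKM, 14 were at least 2-fold lower and 1 at least 2-fold higher after 1 was added to each RPKM value and the adenoma value divided by the control value, a log2 scale on which low genes appear closer to 0 than they are. Among the 12910 mRNA genes past the same level, 13.1% were at least 2-fold lower and 10.4% at least 2-fold higher, against 29.8% and 2.13% of the 47. The median log2 fold change of the 47 was -0.57, and that of the mRNA genes was -0.17. The other 195 Slc genes past 1 RPKM had 25.1% at least 2-fold lower and a median of -0.45. With 1 pool per group none of these shares was tested.

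**Figure D1:**
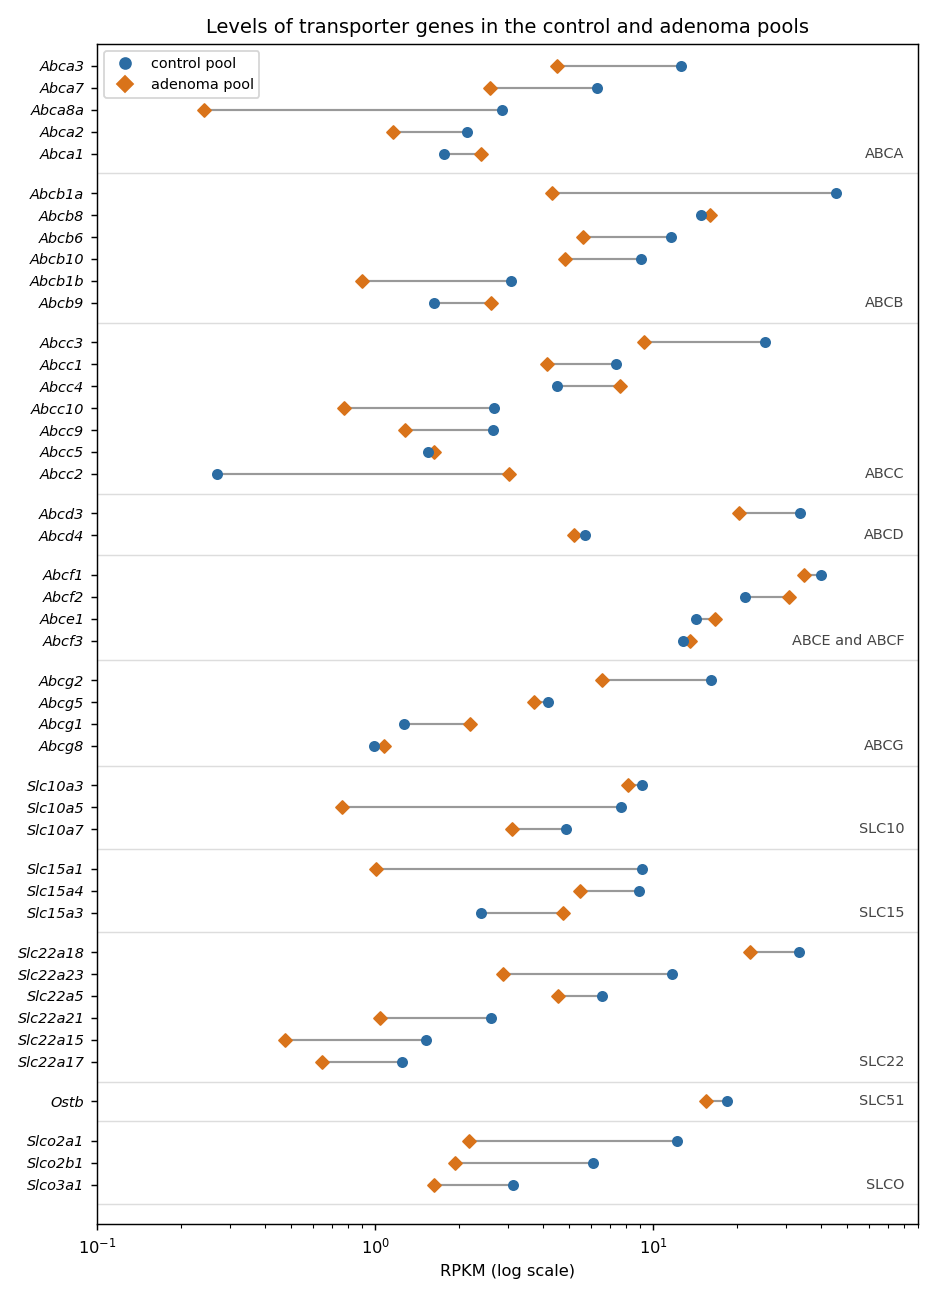
RPKM in the control pool (blue circles) and the adenoma pool (orange diamonds) on a log axis, for 44 of the 47 transporter genes that reached 1 RPKM, grouped by family; each point is 1 library pooled from 6 individuals. The longest lines to the left belong to Abcb1a, Abca8a, Slc10a5 and Slc15a1, and the longest to the right to Abcc2.

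The fold changes of mRNA genes varied with transcript length. Their median log2 value was 0.84 for the shortest 10% of transcripts and -0.78 for the longest 10%. The 47 transporter genes were long, with a median of 3923 bases against 2823 for mRNA genes. Of 4274 other mRNA genes between 3014 and 5764 bases, the middle length range of the transporters, 16.9% were at least 2-fold lower and 2.83% at least 2-fold higher, with a median of -0.45. To adjust for length, the running median over length was subtracted and the median of all mRNA genes was added back. The typical mRNA gene of any length thus lies near -0.17 on the adjusted scale. On it 9 transporters were at least 2-fold lower and 2 higher, against 9.98% and 5.34% of 12719 mRNA genes. The group's median was -0.34, against -0.17 for the mRNA genes. Of the 15 genes past 2-fold as measured, 8 stayed past it after this step, among them Abcb1a, Slc15a1, Slc10a5, Slco2a1, Slc22a23, Abca8a and Abcc2. Abca3, Abca7, Abcb1b, Abcc3, Abcc10, Abcg2 and Slco2b1 did not. "Length-adjusted" below is the log2 value after this step.

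The same counts under other settings, each beside its mRNA background, were as follows. With a pseudocount of 0.1, 17 transporters were lower and 1 higher, against 20.4% and 13% of mRNA genes. With a pseudocount of 5, 7 were lower and 0 higher, against 4.83% and 5.97%. Without the filter on low values 14 of 83 were lower and 1 higher, against 9.4% and 7.47%, and with a filter at 5 RPKM 11 of 28 were lower and 0 higher, against 15.6% and 12.6%. Rescaling to equal RPKM sums gave 19 lower and 1 higher, against 22.9% and 5.58%, and to the upper quartile 15 and 1, against 15% and 9.06%. The median ratio gave 13 and 1, against 12.5% and 10.9%, and the trimmed mean of log ratios 13 and 1, against 12.5% and 10.8%. A 1.5-fold threshold gave 23 lower and 3 higher, against 29.2% and 19.5%, and a 4-fold threshold 4 and 0, against 1.29% and 1.82%. The length adjustment with the longest transcript gave 9 and 3, against 10.4% and 6.15%. The transporters' share of lower genes was above the mRNA share in each of these settings, and their share of higher genes was below it except after the adjustment with the longest transcript, where it was 6.38%.

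**Figure D2:**
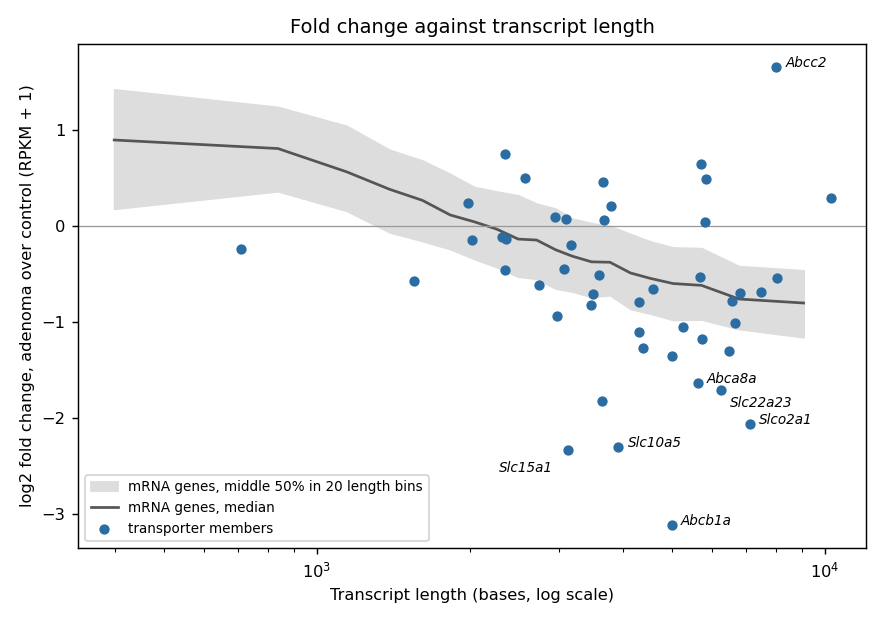
log2 fold change (adenoma over control, RPKM + 1) against transcript length on a log axis; blue points are the 47 transporter genes, the line is the median of mRNA genes in 20 length bins and the band their middle 50%. The line falls from 0.90 in the shortest bin to -0.80 in the longest, and Abcb1a, Slc15a1 and Slc10a5 lie far below it at their lengths.

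**Figure D3:**
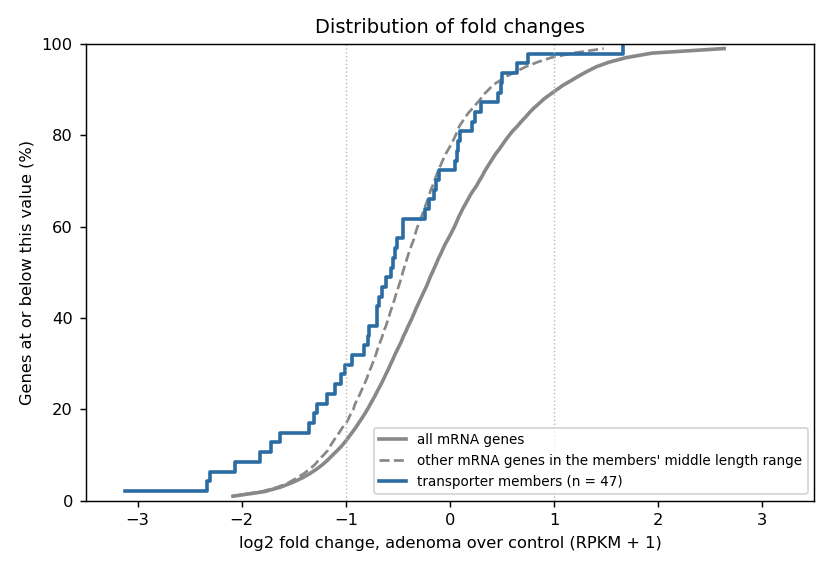
Cumulative share of genes (percent) at or below each log2 fold change (adenoma over control, RPKM + 1), for the 47 transporter genes (blue), all 12910 mRNA genes (solid grey) and 4274 other mRNA genes of similar length (dashed grey). At the left, 29.8% of the transporters lie at or below -1 against 16.9% of the genes of similar length.

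Among the ABCB pumps, the drug efflux gene Abcb1a had the highest level of any transporter of the group in normal colon. Control colon held 45.3 RPKM and the adenomas 4.33, about 6689 and 717 reads, which is 10.5-fold lower (9.70 to 11.3; an exact 95% interval that covers counting error only, as do all intervals here). Its length-adjusted log2 fold change was -2.70. Its neighbour and close paralog Abcb1b, which also encodes a P-glycoprotein, was at 3.09 and 0.897 RPKM, 3.44-fold lower (2.82 to 4.24) and at -0.77 after length adjustment. The third gene of this run on chromosome 5, Abcb4, a phosphatidylcholine floppase best known from the liver canaliculus, had about 53 reads in control colon and 7 in the adenomas, 0.442 and 0.0542 RPKM. All 3 neighbours were thus lower in the adenoma pool, and reads from near-identical parts of Abcb1a and Abcb1b cannot be assigned with certainty.

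The mitochondrial transporters of the family differed less as measured. Abcb8 was at 14.9 and 16.0 RPKM in the control and adenoma pools, 1.07-fold higher with an interval of 0.996 to 1.16 that includes no difference. Abcb10, needed for haem synthesis, was at 9.02 and 4.81 RPKM. Abcb6, a porphyrin transporter, was at 11.6 and 5.58 RPKM, 2.08-fold lower (1.88 to 2.32) but just short of the threshold on the log2 scale at -0.94. Abca7, at -1.01, was the gene just past it. Length-adjusted, Abcb6 was at -0.86 and Abcb1b at -0.77. Abcb9, a lysosomal peptide transporter, was 1.60-fold higher (1.33 to 1.93), at 1.62 and 2.60 RPKM. The bile salt export pump gene Abcb11, a liver gene, and Abcb5 were listed at 0 in both pools, where 3 reads in the control pool would have given 0.0205 and 0.0262 RPKM.

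The ABCC family of conjugate pumps held differences in both directions. Abcc2, an apical pump of glutathione and glucuronide conjugates, had about 64 reads in control colon and 804 in the adenomas. Its level went from 0.270 to 3.02 RPKM, 11.2-fold higher (8.67 to 14.7), with log2 fold changes of 1.66 as measured and 2.27 after length adjustment. Abcc3, its basolateral counterpart in gut epithelium, was the most abundant of the family at 25.2 and 9.29 RPKM, 2.72-fold lower (2.56 to 2.88). The adenoma pool thus held less Abcc3 and more Abcc2, with Abcc3 still the higher of the pair in RPKM.

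Abcc4, which exports cyclic nucleotides and prostaglandins, was at 4.51 and 7.61 RPKM, 1.69-fold higher (1.55 to 1.85), and its length-adjusted value of 1.09 was past 2-fold. Abcc1, a pump of glutathione conjugates and leukotrienes, was at 7.36 and 4.16 RPKM, 1.77-fold lower (1.63 to 1.92). Its length-adjusted value was -0.11, and the median of the 7 ABCC genes past 1 RPKM went from -0.68 to -0.08 with that adjustment. Abcc5, another exporter of cyclic nucleotides, was at 1.55 and 1.63 RPKM, with an interval of 0.890 to 1.24 around its 1.05-fold difference. Abcc10 was 3.46-fold lower (2.84 to 4.22), at 2.67 and 0.771 RPKM. Of the sulfonylurea receptors, which are subunits of potassium channels, Abcc9 was at 2.66 and 1.28 RPKM and Abcc8 at 0.270 and 0.0670. Below 1 RPKM in both pools were also Abcc6 (0.949 and 0.310 RPKM) and Abcc12, with about 2 and 35 reads.

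Among the ABCA lipid transporters, 3 of 5 genes past 1 RPKM were at least 2-fold lower. Abca3, a phospholipid transporter of lamellar bodies, was the most abundant at 12.6 and 4.51 RPKM, 2.79-fold lower (2.59 to 3.01) and at -0.75 after length adjustment. Abca7, a lipid transporter active in phagocytic cells, was at 6.26 and 2.60 RPKM, 2.41-fold lower (2.18 to 2.66). Abca2 was at 2.15 and 1.16 RPKM, with a length-adjusted value of 0.07. Abca1, the cholesterol efflux pump that loads apolipoprotein A-I, went the other way at 1.77 and 2.40 RPKM, 1.36-fold higher (1.22 to 1.52).

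A run of 5 neighbouring ABCA genes on chromosome 11 was lower throughout. In the GENCODE M21 annotation of GRCm38 it reaches from the start of Abca8b at 109932190 to the end of Abca5 at 110337716. Abca8a was at 2.86 and 0.242 RPKM, 11.8-fold lower (8.70 to 16.4), and at -1.19 after length adjustment. The other 4 stayed under 1 RPKM: Abca8b had about 141 and 19 reads in the control and adenoma pools, Abca9 151 and 44, Abca5 64 and 28, and Abca6 16 and 4. Abca8a and Abca8b are close paralogs whose reads may be shared. Of 6 fibroblast markers 4 were lower in the adenoma pool, with a summed level of 359 RPKM in control colon and 434 in the adenomas. Their median log2 fold change was -0.25 as measured and 0.21 after length adjustment. All 6 endothelial markers were lower, with a sum of 51.1 against 24.6 RPKM and a median of -0.91 (-0.66 length-adjusted). The part of either cell type in the Abca values was not tested.

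The remaining ABCA genes, Abca4, Abca12, Abca13, Abca14, Abca15 and Abca17, were all under 0.1 RPKM, with Abca13 at about 39 and 6 reads.

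In the ABCG family the drug and urate efflux pump Abcg2, called breast cancer resistance protein, was at 16.1 and 6.55 RPKM, 2.46-fold lower (2.30 to 2.64), with a length-adjusted value of -0.74. The sterol exporters Abcg5 and Abcg8, which work as a pair, did not differ beyond counting error. Abcg5 was at 4.19 and 3.73 RPKM, with about 291 reads in each pool, and Abcg8 at 0.990 and 1.08, with intervals of 0.951 to 1.33 and 0.838 to 1.42 around fold differences of 1.12 and 1.09. Abcg1, which moves cholesterol to lipoproteins in macrophages, was 1.72-fold higher (1.46 to 2.03), at 1.27 and 2.20 RPKM. Abca1 and Abcg1, both cholesterol efflux pumps, were thus higher in the adenoma pool. The sum of macrophage markers went from 290.2 to 451 RPKM, with 4 of 7 higher as measured. Their median log2 fold change was 0.32, but -0.22 after length adjustment, where Abca1 and Abcg1 were at 0.93 and 0.95. The part of these cells was not tested. Abcg3 (0.937 and 0.601 RPKM) and Abcg4 (0.476 and 0.104) stayed under 1 RPKM.

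Among the ABCD transporters, Abcd3, which brings branched fatty acids and bile acid precursors into peroxisomes, was the second most abundant ABC transporter with a membrane domain in normal colon, at 33.8 and 20.3 RPKM, 1.66-fold lower (1.57 to 1.75). Abcd4, a lysosomal cobalamin transporter, was at 5.68 and 5.20 RPKM, with an interval of 0.947 to 1.26 around its 1.09-fold difference. Abcd2 had about 23 and 25 reads.

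The ABCE and ABCF genes, which do not transport, were the only ABC family here without a gene past 2-fold. Abcf1 was at 40.1 and 34.8 RPKM, Abcf2 at 21.4 and 30.7, Abcf3 at 12.8 and 13.6, and the ribosome recycling factor Abce1 at 14.3 and 16.7. Their median log2 fold change was 0.15, or 0.31 after length adjustment, but -0.22 with the pools rescaled to equal RPKM sums. The other 26 ABC genes past 1 RPKM held 9 of the 14 genes at least 2-fold lower and the 1 higher. With length adjustment the median of all 30 ABC genes past 1 RPKM moved from -0.54 to -0.10, above the adjusted mRNA median of -0.17. Past 2-fold on that scale were 3 of these 30 downward and 2 upward, beside 9.98% and 5.34% of mRNA genes. The 17 solute carrier genes past 1 RPKM, Slco included, had medians of -0.62 as measured and -0.63 adjusted. Of these 17, 6 passed 2-fold downward after adjustment and 0 upward.

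**Figure D4:**
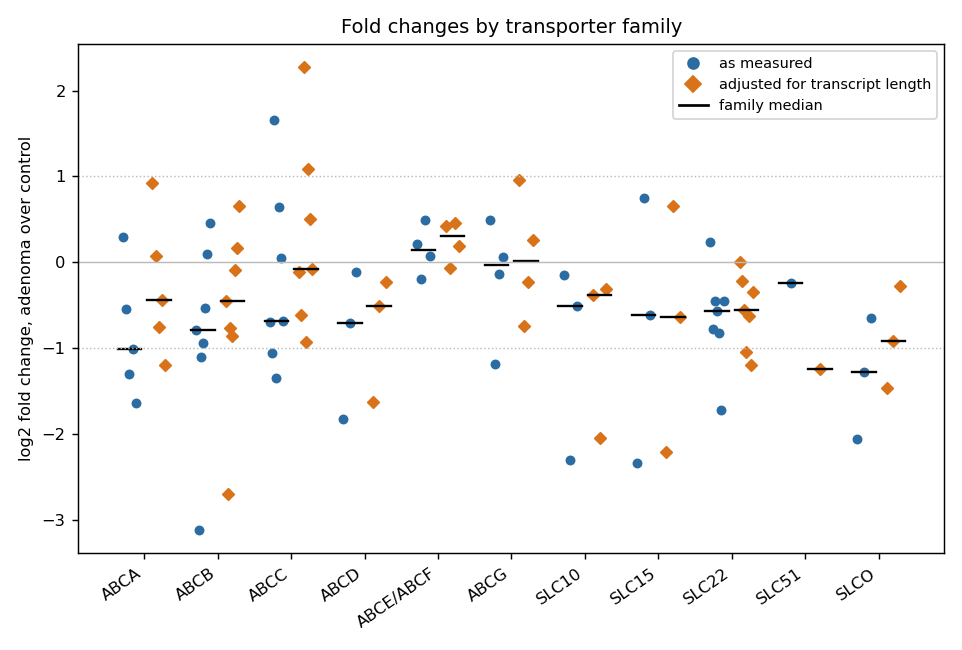
log2 fold change (adenoma over control, RPKM + 1) of the 47 transporter genes by family, as measured (blue circles) and adjusted for transcript length (orange diamonds); each point is a gene and black bars are family medians. The medians as measured run from -1.27 for SLCO to 0.15 for ABCE/ABCF, and the adjustment moves the long ABCA and ABCC genes up and the short Ostb down.

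Slc15a1, which takes up di- and tripeptides and peptide-like drugs at the brush border, had 9.10 RPKM in control colon and 1.004 in the adenomas, about 840 and 104 reads. It was 9.07-fold lower (7.39 to 11.2), at -2.21 after length adjustment. The lysosomal carriers Slc15a4 and Slc15a3, which move histidine and bacterial peptides in immune cells, stood at 8.88 against 5.44 RPKM and at 2.41 against 4.74. Slc15a3 was 1.97-fold higher (1.63 to 2.38) and Slc15a4 1.63-fold lower (1.45 to 1.83). Slc15a2, the renal and glial peptide carrier, had about 29 and 24 reads, and Slc15a5 was listed at 0 in both pools.

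Bile salt carriers were low or little different in both pools. Slc10a2, the apical sodium-dependent carrier of the ileum, had about 8 reads in control colon and 79 in the adenomas, 0.0623 and 0.574 RPKM, below the level used for fold changes. The hepatic carrier gene Slc10a1 had about 1 and 0 reads. Ostb, now called Slc51b, is 1 subunit of the basolateral bile salt exporter, and it stood at 18.4 and 15.4 RPKM, 1.19-fold lower (1.03 to 1.38). As a short transcript of 709 bases, it had a length-adjusted value of -1.25. Its obligate partner Osta, now Slc51a, was listed at 0 in both pools, where 3 reads would have given 0.0388 RPKM in the control pool. An exact 0 in such a table can be a failed estimate, so nothing is read from it.

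The orphan members of the SLC10 family were the more abundant ones. Slc10a5 was at 7.67 and 0.761 RPKM, about 889 and 99 reads, 10.1-fold lower (8.18 to 12.5) and at -2.05 after length adjustment. Slc10a3 had about 544 reads in each pool, at 9.10 and 8.11 RPKM, and Slc10a7, linked to skeletal development, was at 4.84 and 3.10. Slc10a6, a carrier of sulfated steroids, had about 45 and 22 reads, and Slc10a4, a vesicle protein of neurons, 16 and 3.

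Of 25 Slc22 genes only 7 reached 1 RPKM, and 1 of these, Slc22a23, was at least 2-fold apart on the log2 scale with the pseudocount, while Slc22a15 and Slc22a21 were so in RPKM alone. Slc22a23, an orphan carrier, was at 11.7 and 2.88 RPKM, 4.07-fold lower (3.72 to 4.47) and at -1.19 after length adjustment. Slc22a18, an imprinted orphan carrier, was the most abundant at 33.4 and 22.2 RPKM, 1.504-fold lower (1.39 to 1.63), and with a short transcript its length-adjusted value was -1.04.

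The carnitine carriers Slc22a5 and Slc22a21, neighbours on chromosome 11, were at 6.55 against 4.53 RPKM and at 2.60 against 1.04. Slc22a5 was thus 1.45-fold lower (1.28 to 1.64). Slc22a21 was 2.51-fold lower (2.01 to 3.14), at -0.82 on the log2 scale with the pseudocount. Their neighbour Slc22a4, the ergothioneine carrier, had more reads in the adenoma pool, about 14 and 27. Slc22a15 was at 1.53 and 0.472 RPKM, 3.24-fold lower (2.58 to 4.09) and at -0.78 on that scale. Slc22a17, a receptor of lipocalin, was at 1.25 and 0.644 RPKM. The cation carriers Slc22a2 and Slc22a3 had about 11 and 22 reads and about 6 and 21 reads.

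The other SLC22 genes are mostly carriers of kidney and liver, and 12 were listed at 0 in both pools, among them the organic anion transporters Slc22a6, Slc22a7 and Slc22a8 and the run on chromosome 19 of Slc22a19, Slc22a26, Slc22a28, Slc22a29 and Slc22a30. The other 4 were Slc22a14, Slc22a16, Slc22a20 and Slc22a22. Slc22a27, Slc22a12 and Slc22a13 had at most 4 reads in either pool. The renal and hepatic toxin extruders Slc47a1 and Slc47a2 had about 5 and 2 reads in control colon and 0 in the adenomas.

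All 3 Slco genes past 1 RPKM were lower in the adenoma pool. Slco2a1, which takes up prostaglandins for breakdown, was at 12.2 and 2.17 RPKM, about 2573 and 512 reads, 5.64-fold lower (5.13 to 6.22) and at -1.47 after length adjustment. Slco2a1 is also a gene of endothelium, and 6 of 6 endothelial markers were lower beside it, as given above; their part was not tested. Slco2b1, a carrier of sulfated steroids and drugs, was at 6.10 and 1.93 RPKM, 3.15-fold lower (2.75 to 3.63). Slco3a1 was at 3.13 and 1.63 RPKM.

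Slco4a1, a thyroid hormone carrier, stayed just under 1 RPKM at 0.998 and 0.566. Slco5a1 had about 5 reads in control colon and 96 in the adenomas, 0.0199 and 0.340 RPKM. Of the liver and brain genes of the Slco1 run on chromosome 6, Slco1a5 had about 4 and 16 reads, Slco1c1 3 and 0, Slco1b2 1 and 0, and Slco1a1, Slco1a4 and Slco1a6 were listed at 0 in both. The testis genes Slco6b1, Slco6c1 and Slco6d1 were listed at 0 as well, and Slco4c1 had about 2 and 4 reads.

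Of the 58 transporter genes under 1 RPKM in both pools, 22 were listed at 0 in both and 22 had at least 10 reads in 1 of them. In 15 of the latter the control pool held the higher RPKM and in 7 the adenoma pool. Over all 105 genes the levels summed to 483.8 RPKM in control colon and 310.0 in the adenomas. Without Abcb1a the sums were 438.5 and 305.7. The RPKM of all genes went the other way, from a sum of 629215 to 828667.

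Genes that work with these transporters were described from lists, by count and median, beside the 13.1% lower, 10.4% higher and median of -0.17 of mRNA genes. Of 20 transcription factors of transporter genes past 1 RPKM, 11 were at least 2-fold lower and 0 higher, with a median of -1.02 (-0.87 length-adjusted). The most abundant was Cdx1, an intestinal homeobox factor, at 190 and 103 RPKM. Hnf4a, a nuclear receptor of gut and liver epithelium, was 2.47-fold lower (2.41 to 2.54), Cdx2 4.05-fold lower (3.69 to 4.46) and the xenobiotic sensor Nr1i2 2.34-fold lower (2.17 to 2.52). The fatty acid receptor Ppard was 6.04-fold lower (5.69 to 6.42) and its relative Ppara 5.41-fold lower (3.93 to 7.74). Hnf4g was 4.89-fold lower (3.89 to 6.25). Others at least 2-fold lower included Rxra, Nfe2l2, Nr3c1 and Ppargc1a, with log2 values from -1.35 to -1.02. After length adjustment Ppara (-0.98), Hnf4a (-0.94), Rxra (-0.94), Nr3c1 (-0.79) and Ppargc1a (-0.52) fell short of 2-fold. Cdx2, Nr1i2, Ppard, Hnf4g and Nfe2l2 stayed past it. The sterol receptors Nr1h2 and Nr1h3 were at 33.0 against 35.6 RPKM and 13.3 against 11.4.

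Of 8 bile acid sensing and handling genes past 1 RPKM, 3 were at least 2-fold lower and 0 higher, with a median of -0.51 (-1.04 length-adjusted). The vitamin D and bile acid receptor Vdr was the most abundant at 86.2 and 10.4 RPKM, 8.26-fold lower (7.82 to 8.71). Nr5a2, a nuclear receptor of bile acid synthesis, was 11.1-fold lower (9.18 to 13.4) and Klb, a coreceptor of the ileal hormone Fgf15, 10.9-fold lower (7.60 to 15.9). The bile acid receptor Nr1h4 was at 17.0 and 13.0 RPKM. Fgf15 itself was listed at 0 in both pools.

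The brush border neighbours of Slc15a1 were lower too: 8 of 12 peptidases and scaffold partners past 1 RPKM were at least 2-fold lower and 0 higher, with a median of -1.09 (-1.06 length-adjusted). The meprin subunits Mep1a and Mep1b, which cut peptides at the brush border, differed by 8.15-fold (7.53 to 8.82) and 3.99-fold (3.60 to 4.43), both lower. The scaffold gene Pdzk1 was 4.35-fold (3.34 to 5.69), Slc9a3r1 2.70-fold (2.58 to 2.83) and the proton exchanger Slc9a3 2.60-fold (2.32 to 2.91) lower. Dpp4, Cdh17 and the most abundant of the list, Ezr, had log2 values of -1.05, -1.13 and -1.05. Length-adjusted, these were -0.62, -0.94 and -0.91. Ezr stood at 270.2 and 130.2 RPKM.

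Of 19 conjugating enzymes past 1 RPKM, which make substrates for Abcc2, Abcc3 and Abcg2, 8 were at least 2-fold lower and 0 higher, with a median of -0.72 (-1.43 length-adjusted). Gstm3 was 5.90-fold (5.03 to 6.93), Ugt1a1 4.56-fold (3.83 to 5.50) and Sult1a1 4.22-fold (4.02 to 4.44) lower. Gstm1, Sult1d1, Ugt2b34, Gstm2 and Gstt1 had log2 values from -1.82 to -1.21. Gstp1, the most abundant, was at 336 and 221 RPKM. The Gst and Ugt genes have close paralogs, so their reads are uncertain.

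Of 13 peroxisomal partners of ABCD proteins 2 were at least 2-fold lower, among them Ehhadh at 2.24-fold (2.03 to 2.48), with a length-adjusted value of -0.96. The median of the 13 was -0.09 (-0.11 length-adjusted). Acaa1a, the most abundant in the control pool, was at 47.4 and 47.2 RPKM. Of 5 carnitine partners past 1 RPKM the 1 at least 2-fold lower was Cpt1a, the entry step of mitochondrial fatty acid oxidation and the most abundant, at 67.8 and 18.7 RPKM. The median of the 5 was -0.46 (-0.53 length-adjusted).

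Of 11 cholesterol and lipoprotein partners past 1 RPKM, 4 were at least 2-fold lower and 1 higher, with a median of -0.84 (-0.27 length-adjusted). Apob was 5.74-fold (5.05 to 6.53), Srebf2 2.14-fold (2.06 to 2.21) and Pltp 2.08-fold (1.91 to 2.26) lower. Their length-adjusted values were -0.86, -0.64 and -1.31. Apoe, a lipoprotein of macrophages and the most abundant, was 2.07-fold higher (2.03 to 2.11), but its length-adjusted value was 0.50. Of 3 ABC genes with other symbols, the chloride channel Cftr was 5.88-fold lower (5.31 to 6.51), and the antigen peptide transporters Tap1 and Tap2 were at 18.1 against 13.8 and 18.7 against 10.7 RPKM.

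Epithelium was present in both pools, with Epcam, an epithelial surface protein, at 752 and 646 RPKM. Epcam does not tell colon from other epithelia, and the colonocyte marker Car1 was at 381 and 146 RPKM. Epithelial markers were lower in 7 of 8 cases, 4 of them at least 2-fold, and their sum went from 9217 to 5868 RPKM. Markers of absorptive colonocytes, the cells in which Abcb1a, Abcg2 and Slc15a1 are known to act, were lower in 7 of 8 cases. All 7 were at least 2-fold lower, and the sum of the 8 markers went from 2129 to 459 RPKM, with none at 0. Goblet cell markers were lower in 6 of 6 cases, 4 of them at least 2-fold, with a sum of 7829 against 1638 RPKM. Summed markers of neutrophils, B and plasma cells and T cells were higher in the adenoma pool. The neutrophil genes S100a8 and S100a9 were at 0.777 against 120 RPKM and 0.693 against 175, although Ly6g was at 113 and 83.2. The neutrophil markers Csf3r, Cxcr2 and Mpo stayed under 1 RPKM in both pools. B and plasma cell markers summed to 506 and 1108 RPKM and T cell markers to 11.8 and 23.2. Single markers were lower in the adenoma pool in 2 of 6 cases for neutrophils, 2 of 6 for T cells and 1 of 6 for B and plasma cells. Among them, Cd4 was at 3.64 and 2.80 RPKM and Cd8a at 0.941 and 0.260. The part of cell mix in the transporter result was not tested. Kidney markers summed to 0.318 and 0.495 RPKM, so genes of renal tubule were near 0 in both pools. Liver markers summed to 36.9 and 40.8 RPKM, with 2 of 6 lower in the adenoma pool. Most of either sum was Ttr, at 34.0 and 31.3 RPKM. Alb was at 1.23 and 6.11 RPKM and Fgb was listed at 0. Small intestine and Paneth markers went from a sum of 91.5 to 617 RPKM, with 3 of 6 lower in the adenoma pool. The higher sum came from the Paneth cell genes Lyz1, at 37.8 and 337 RPKM, and Defa24, at 237 RPKM in the adenomas. Defa24 was listed at 0 in control colon, which, as for Osta, can be a failed estimate, so its part in the difference of sums is uncertain. Of the absorptive genes of small intestine, Fabp2 was at 37.6 and 32.4 RPKM, the brush border enzyme Sis at 0.00575 and 0, and Apoa4 at about 2 and 11 reads. The ileal bile acid binding protein gene Fabp6 was at 16.1 and 9.74 RPKM, 1.65-fold lower (1.34 to 2.04), while the ileal carrier gene Slc10a2 had more reads in the adenomas.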

How the data were processed

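RNA was extracted with Trizol and pooled from 6 individuals per group, 1 library each, per the labels' protocols. The authors deposited 1 table of RPKM values; per the submitters' processing notes the build is GRCh37, a human assembly, although the symbols are those of mouse. For aligner, counter and gene annotation, the sources used here give no name. The library protocol in the labels names Illumina and the series text a proton sequencer.

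Read totals of 29548883 (control) and 33174626 (adenoma) were recovered from short single-exon RNA genes, of which 70.3% and 71.6% came out within 0.01 of a whole read. Reads per gene used the longest RefSeq-matched transcript of GENCODE M21 (GRCm38), found for all 105 members, 2 through RefSeq synonyms. With it 45.6% of control and 45.3% of adenoma mRNA genes under 8 reads lay within 0.05 of a whole read, against 40.0% and 39.3% with the longest transcript, so reads are approximate. Promoters were from RefSeq (GRCm38.p6), the first entry per gene. Intervals were exact (Clopper-Pearson), from SciPy 1.17.1. Printed folds divide RPKM values directly, without the pseudocount of 1 used for log2 values, and none was formed where a value was 0. For some values at 0 the RPKM that a floor of 3 reads would have given is printed. The length adjustment used 20 bins. The arithmetic was tested on simulated data. Every member past 1 RPKM could be named, and of each list the most abundant gene and those at least 2-fold apart. Some genes that this rule names are not reported here by name; they stay in all counts and medians. Members and lists were chosen with earlier results of these data known. The 2 rows of another gene type that match the symbols were left out.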

Additional observations from a re-analysis of the deposited data

How the results depend on the processing

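With 1 pool per group no p-value, replicate spread or leave-one-out value exists. No paired analysis was possible because each group is 1 pool. Depth limited genes with few reads: the members at least 2-fold apart rest on 519 reads or more over both pools, and those under 1 RPKM on far fewer. The count of members at least 2-fold lower, 14, was 13 to 19 under pseudocount 0.1, no filter and every rescaling (median ratio, upper quartile, trimmed mean of log ratios, equal RPKM sums), 11 with a filter at 5 RPKM, 7 with pseudocount 5, 9 after length adjustment (also 9 with the longest transcript, an alternative added after seeing the data), 23 at a 1.5-fold threshold and 4 at 4-fold. The count at least 2-fold higher, 1, was 0 with pseudocount 5, with the filter at 5 RPKM and at 4-fold, 3 at 1.5-fold, and 2 after length adjustment (3 with the longest transcript). The median of -0.57 was -0.73 with pseudocount 0.1, -0.29 with pseudocount 5, -0.20 without the filter, -0.70 with the filter at 5 RPKM, -0.89 at equal sums and -0.34 after length adjustment (-0.38 with the longest transcript). Of mRNA genes, 1693 lower and 1346 higher became 2961 and 721 at equal sums and 1269 and 679 after length adjustment. The ABCE and ABCF median turned to -0.22 at equal sums and the ABCG median from -0.03 to 0.017 after length adjustment. All 15 genes past 2-fold kept their sign under each alternative in which they were measured. Abca7 fell short of 2-fold with the median ratio and the trimmed mean.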
